A study of Mus musculus with 30 samples.

Results

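The effect of bone morphogenetic protein 2 (BMP2) on the transcriptome of control C2C12-pMirn0 cells at d6 was read from 6 of the 30 arrays of the series. Of these, 3 arrays held RNA of cells cultured for 6 days in differentiation medium with 300 ng/ml BMP2 and 3 held RNA of cells cultured for 6 days in the same medium without BMP2 (untreated). The comparison was made over all 45101 probe sets, and genes are named from the 34958 probe sets that carry a single gene symbol, which stand for 18194 genes. C2C12 is a mouse myoblast line that fuses into multinucleated myotubes in low-serum medium. The C2C12-pMirn0 line was made by stable transduction with the parent lentivector, which drives the fluorescent marker copGFP, and by sorting for copGFP, so both groups are the same sorted line and the arrays of a group do not stand for independently made lines. Where other groups are set beside it, they are C2C12-pMirn0 cells at d0 and at d3 with or without BMP2, and C2C12-pMirn378 cells, transduced with the same lentivector carrying a miR-378 precursor, at d6 with or without BMP2.

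Values are intensities on the linear scale, and AEV (average expression value) is the mean of the 3 arrays of a group with its SD. The log2 ratio is BMP2-treated over untreated, fitted by limma on log2 values, and a probe set was called higher or lower at a Benjamini-Hochberg adjusted p under 0.005 with a log2 ratio past 0.6 in either direction. The 3 arrays of a group come from triplicate experiments on 1 line, and p-values measure the spread between such arrays. An array reports RNA per culture, so a lower share of cells of a type and less of its RNA per cell cannot be told apart here.

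BMP2 is a secreted ligand of the TGF-β superfamily. It binds pairs of type I and type II serine/threonine kinase receptors, which phosphorylate the receptor SMADs of the BMP branch, and these enter the nucleus with SMAD4 and act on genes such as the *Id* family. Id proteins bind the E protein partners of the myogenic MyoD family and keep that family from its E-box sites in muscle genes. In C2C12 cells BMP2 is known for blocking myotube formation and for turning the cells towards the osteoblast lineage, in which transcription factors such as osterix act ahead of alkaline phosphatase and of the bone matrix genes.

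At d6 BMP2-treated and untreated C2C12-pMirn0 cells differed over a large part of the array. Of 45101 probe sets, 4358 (9.66%) were higher and 3716 (8.24%) were lower with BMP2. Among the 34958 probe sets with 1 symbol, 3698 (10.6%) were higher and 3338 (9.55%) were lower, naming 2515 and 2267 genes, and the background for the gene lists below is 10.9% higher and 10.5% lower of 18194 genes, each read on its brightest probe set. The falls were steeper than the rises, as 994 called probe sets with 1 symbol had a log2 ratio below -2 and 536 had one above 2. Pearson's r between replicate arrays over the brighter probe sets ran from 0.989 to 0.99, and between BMP2-treated and untreated arrays from 0.87 to 0.877. The medians of the BMP2-treated arrays were 73.92 to 75.75 and those of the untreated arrays 68.04 to 72.9. On the log2 scale, replicates had a median SD of 0.12 where a probe set reached the median of all values (76.46) and of 0.708 where it did not, and 400 called probe sets had both group means below it. A large log2 ratio against a group below that median is therefore a loose value, and the ratio with values under 50 set to 50 is given beside several of those genes.

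The untreated cells carried the markers of myotubes, and all 10 myotube markers were lower with BMP2, with a median log2 ratio of -4.17. Of 7 osteoblast markers measured, 3 were higher with BMP2, namely *Sp7* (osterix), *Alpl* (alkaline phosphatase) and *Pth1r* (the parathyroid hormone receptor). The late marker *Bglap*, also on the list, had no probe set with a single gene symbol and was not read. The late markers *Ibsp*, *Dmp1* and *Phex*, of mineralizing osteoblasts and osteocytes, lay below the median of all values in both groups, at AEVs of 42.9 against 45.5, 7.49 against 33.2 and 41.5 against 48.9. *Col1a1* read 1594 against 901 on one probe set and 2101 against 1609 on its brighter one, and was called on neither. *Dmp1* passed as lower in 4 of its 15 alternatives, without BMP2-treated replicate 1 (log2 ratio -3.44, adjusted p = 0.000528), under both other scalings and with a trended and robust variance estimate.

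The factors that drive terminal muscle differentiation were lower with BMP2, while the early determination factor *Myf5* was higher. Of 17 measured myogenic regulators, 9 were lower and 2 higher. *Myog*, the MyoD family member that switches on terminal differentiation, read 1353, 1448 and 1533 in BMP2-treated cells, against 17328, 17079 and 15532 in untreated cells. The groups lay far apart, with AEVs of 1444 ± 90.2 in BMP2-treated cells and 16646 ± 973 in untreated cells (log2 ratio -3.53, SE 0.075, adjusted p = 9.32e-20). *Mef2c*, a MADS-box partner of the MyoD family, read 543, 517 and 490.4 in BMP2-treated cells, against 12879, 11070.4 and 11083 in untreated cells, so that the untreated arrays were all higher than the BMP2-treated ones (log2 ratio -4.50, SE 0.11, adjusted p = 1.17e-18). Its relative *Mef2a* fell by 1.52 on the log2 scale, whereas *Mef2d* had a log2 ratio of -0.45 and was not called. *Rbm24*, an RNA-binding protein that steers muscle splicing, had an AEV of 297 ± 9.28 in BMP2-treated cells and 4882 ± 192 in untreated cells (log2 ratio -4.04, SE 0.078, adjusted p = 2.24e-20). *Tead4*, a DNA-binding factor of the Hippo pathway, and *Hdac9*, a deacetylase that binds MEF2 proteins, fell by 3.18 and 1.46, and *Myf6*, the MyoD family member of mature fibres, fell by 1.82.

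Not every myogenic regulator followed. *Myod1* itself read 1519, 1765 and 1623 in BMP2-treated cells, against 2306, 2359 and 2378 in untreated cells. Its groups did not overlap, but the log2 ratio of -0.52 lay inside the minimum of 0.6, and it was not called. *Myf5*, which marks committed but undifferentiated myoblasts, read 5676, 5649.9 and 5602 in BMP2-treated cells, against 1829, 2062 and 2033 in untreated cells, every BMP2-treated array being the higher (log2 ratio 1.52, SE 0.078, adjusted p = 3.45e-13). *Eya1*, a transcriptional coactivator of muscle precursors, was also higher, with an AEV of 1868 ± 39.8 in BMP2-treated cells and 563 ± 15.9 in untreated cells (log2 ratio 1.73, SE 0.097, adjusted p = 1.59e-12). *Pax7* of muscle satellite cells was dim, at 141 against 94.4, and *Tcf12*, one of the E proteins, had a log2 ratio of 0.18; neither was called. Of 7 markers of proliferating myoblasts *Myf5* was the 1 higher gene and 4 were lower. The median log2 ratio of the 7 was -1.50, or -0.83 with values under 50 set to 50. The lower ones were *Cdh15*, M-cadherin, *Msc*, for musculin, a repressor of myogenesis, *Des*, for desmin, and *Mki67*. *Msc* was at 13.3 against 89.1 and *Des* at 3143 against 11928 (log2 ratios -2.83 and -1.92), while *Myod1* and *Pax7* were not called, as above.

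Genes of muscle structure were lower almost throughout. Of 44 sarcomere genes, 42 were lower with BMP2 and 0 were higher, at a median log2 ratio of -3.69 beside 0.08 over all 18194 genes. Set against d0, 41 of the 44 were higher in untreated cells at d6 (median log2 ratio 2.89), while in BMP2-treated cells 8 were higher and 19 were lower (median -0.65). Over all 18194 genes, 12% were higher and 12.2% lower than at d0 in untreated cells, and 11.4% higher and 10.7% lower in BMP2-treated cells. Both of these share the d0 arrays. *Myh4*, the fast IIb myosin heavy chain, had the largest fall of all genes at the floor of 50, with 31.6, 3.15 and 35.8 in BMP2-treated cells, against 13123, 12453 and 13866 in untreated cells. In BMP2-treated cells it was below the median of all values on every array (log2 ratio -9.75, SE 0.72, adjusted p = 1.87e-10, and -8.04 with values under 50 set to 50).

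The thin filament and its calcium switch moved with the myosins. *Tnni2* and *Tnnt1*, fast troponin I and slow troponin T, had AEVs of 815 against 24469 and 448 against 17769.7 and fell by 4.91 and 5.31 on the log2 scale. *Tnnc2*, fast troponin C, was at 1415 ± 58.2 in BMP2-treated cells and 21271 ± 1661 in untreated cells (log2 ratio -3.91, SE 0.099, adjusted p = 1.81e-18). *Neb*, for nebulin along the thin filament, read 296, 258 and 328 in BMP2-treated cells, against 9070.4, 8915 and 9404 in untreated cells, with no overlap (log2 ratio -4.96, SE 0.097, adjusted p = 2.75e-20). *Ttn*, for titin, the spring that spans the sarcomere, had an AEV of 837 ± 63.8 in BMP2-treated cells and 19134 ± 1258 in untreated cells (log2 ratio -4.52, SE 0.091, adjusted p = 4.69e-20). *Synpo2l* of the Z-disc had an AEV of 753 against 13334 and *Tnnt2*, cardiac troponin T, 1478 against 26434.

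Some sarcomere genes kept high intensities with BMP2. *Acta1*, skeletal α-actin, was at 8097 ± 566 in BMP2-treated cells and 24829 ± 1893 in untreated cells (log2 ratio -1.62, SE 0.1, adjusted p = 1.75e-11), and *Mylpf*, the fast regulatory light chain, at 7451 ± 108 in BMP2-treated cells and 29040.4 ± 1414 in untreated cells (log2 ratio -1.96, SE 0.085, adjusted p = 1.87e-14). *Myl1*, the alkali light chain, was at 12152 against 26142 and fell by 1.10 on the log2 scale. *Tpm2*, β-tropomyosin, fell by 0.89. The 2 members not called were *Myh2* and *Myl3*, at 101 against 112 and 62.5 against 86.0, both close to the median of all values. Intensities of different probe sets do not rank transcripts by amount, so these levels compare a gene only with itself.

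**Figure D1:**
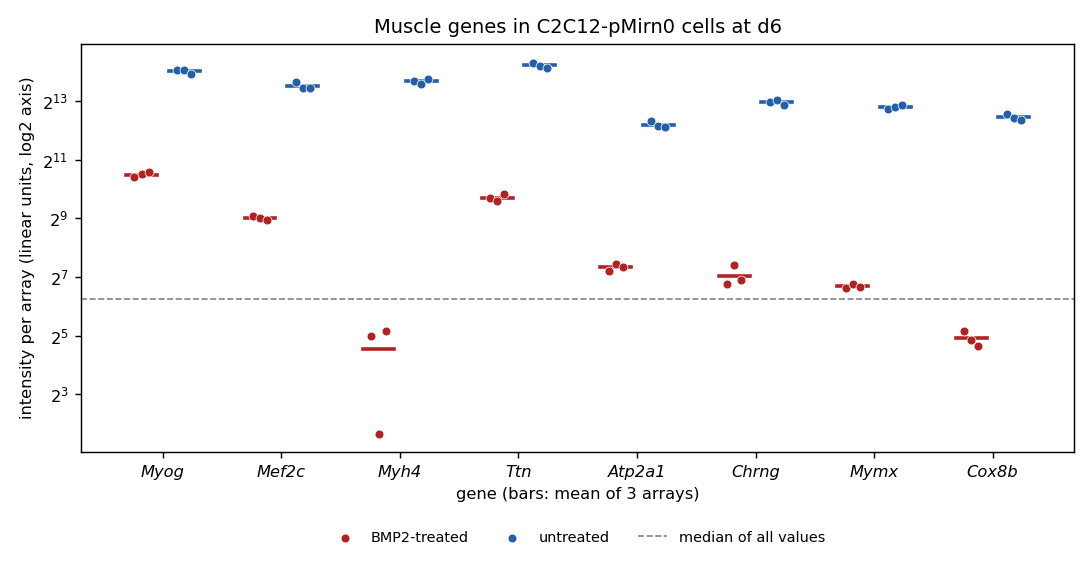
Intensity (log2 axis) of 8 muscle genes on each array, with BMP2-treated arrays (red) left of untreated arrays (blue) and a bar at the mean of each group. In each gene the 3 BMP2-treated points lie below the 3 untreated points, and for *Myh4* and *Cox8b* the BMP2-treated points lie under the dashed line at the median of all values (76.46).

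The machinery that couples the nerve signal to contraction was lower as well. Of 17 genes of calcium release and storage, 15 were lower and 0 higher (median log2 ratio -4.24). *Ryr1*, the calcium release channel, and *Cacna1s*, the voltage sensor it is coupled to, had AEVs of 107 against 3396 and 62.6 against 1162. *Atp2a1*, the calcium pump of fast fibres, read 148, 176 and 163 in BMP2-treated cells, against 5180.0, 4508 and 4452 in untreated cells, without overlap between the groups (log2 ratio -4.86, SE 0.16, adjusted p = 1.17e-16). *Casq2* and *Hrc*, calcium-binding proteins of the reticulum, fell by 4.72 and 5.34 on the log2 scale, and *Trdn*, for triadin, by 4.71. *Sln* and *Asph* were not called.

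Of 12 genes of the neuromuscular synapse, 8 were lower and 0 higher (median -1.85). The acetylcholine receptor of embryonic muscle is built from the products of *Chrna1*, *Chrnb1*, *Chrng* and *Chrnd*, and all 4 subunit genes were lower. *Chrng*, for the fetal γ subunit, read 108, 169 and 121 in BMP2-treated cells, against 7979.6, 8401 and 7478 in untreated cells (log2 ratio -5.93, SE 0.14, adjusted p = 3.84e-19), and its second probe set, which ranks among the 12 largest falls, gave 41.0 against 5599. *Chrna1*, for the α subunit, had an AEV of 4251 ± 236 in BMP2-treated cells and 18614 ± 1147 in untreated cells (log2 ratio -2.13, SE 0.081, adjusted p = 1.72e-15). *Musk*, the kinase that gathers the receptors, fell by 0.81, and its coreceptor *Lrp4* by 1.93. Agrin (*Agrn*) and acetylcholinesterase (*Ache*) were not called, at 371 against 265 and 41.2 against 45.3.

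Myoblast fusion rests on 2 muscle membrane proteins, and both genes were lower. *Mymk*, for myomaker, had an AEV of 376 ± 37.7 in BMP2-treated cells and 9143 ± 937 in untreated cells, and *Mymx*, for myomixer, read 99.2, 108 and 101 in BMP2-treated cells, against 6883, 7209.9 and 7461 in untreated cells. The log2 ratios were -4.60 and -6.13, with SEs of 0.16 and 0.11 (adjusted p = 3.96e-16 and 1.26e-20). *Cav3*, the caveolin of the muscle membrane, fell by 4.56 and *Cdh15*, M-cadherin, by 3.46. Of 13 fusion and membrane genes, 8 were lower and 1, *Ncam1*, the neural cell adhesion molecule, was higher, at 3368 against 2042 (log2 ratio 0.72, adjusted p = 1.77e-10). That call was lost where the probe sets of the gene were averaged.

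Energy supply of the muscle fibre was the next group, with 16 of 18 genes lower and 0 higher (median -3.06). *Ckm*, muscle creatine kinase, which buffers ATP, read 123, 127 and 89.4 in BMP2-treated cells, against 9864, 8971 and 8844 in untreated cells, without overlap (log2 ratio -6.37, SE 0.17, adjusted p = 2.44e-18). *Cox8b*, a muscle subunit of cytochrome c oxidase, read 35.3, 29.1 and 25.3 in BMP2-treated cells, against 6016, 5512 and 5254 in untreated cells, the BMP2-treated arrays all lying below the median of all values (log2 ratio -7.56, SE 0.53, adjusted p = 8.23e-11, and -6.80 with values under 50 set to 50). *Pygm* and *Pgam2*, of glycogen breakdown and glycolysis, fell by 5.06 and 4.84, and *Mb*, for myoglobin, by 3.29. The wider set of 32 genes of oxidative phosphorylation and fatty acid oxidation, which all cells use, moved less, with 10 lower, 0 higher and a median of -0.38. Its lowest member was *Acadl*, a dehydrogenase of fatty acid oxidation, at 2656 against 9052 (log2 ratio -1.77).

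The 12 genes with the largest falls held 7 more that are not named above or are named on another probe set. *Trdn* ranks there by a second probe set, at 91.1 against 4990.2 (log2 ratio -5.86). *Prkag3*, the muscle γ subunit of the energy sensor AMPK, had an AEV of 55.1 against 5809. *Unc45b*, a myosin chaperone, and *Lmod3*, which nucleates thin filaments, were at 62.7 against 3657 and 159.6 against 8823. *Cilp*, a matrix protein named after cartilage, read 34.1, 33.7 and 61.6 in BMP2-treated cells, against 3039.8, 3166 and 3128 in untreated cells, and *Tceal7* and *Mamdc2* had AEVs of 143 against 7212 and 57.2 against 3033. The log2 ratios of *Cilp*, *Tceal7* and *Mamdc2* were -6.23, -5.69 and -5.81.

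The promoters of the lower muscle genes were read from RefSeq (mouse assembly GRCm38.p6), 250 bases before to 50 after the start of the gene, in which 14453 of the 18194 genes had an entry. The E-box CAGCTG, a site of the MyoD family and its E protein partners that reads the same on both strands, was present in 20.6% of 1522 promoters of lower genes, 14.1% of 1575 of higher genes and 16.1% of all 27025 promoters in the table. It was present in 13 of 34 sarcomere promoters (38.2%), 8 of 16 of muscle energy genes, 5 of 9 of calcium genes (55.6%) and 4 of 8 of synapse genes, but in 1 of 6 of fusion genes (16.7%), and in 5 of 17 of the BMP target list (29.4%) described below. The windows below show it in capitals for 5 genes with large falls. These are *Myh4* of the sarcomere, *Chrng* of the synapse, *Cox8b* and *Ckm* of muscle energy and *Atp2a1* of the calcium genes, and no fusion gene is shown. The first base of the motif lay at -67 (*Myh4*, chr11:67237733-67237762, plus strand), -155 (*Chrng*, chr1:87205644-87205673, plus strand), -19 (*Cox8b*, chr7:140900448-140900477, minus strand), -249 (*Ckm*, chr7:19410844-19410862, plus strand, cut at the edge of the entry) and -55 (*Atp2a1*, chr7:126463111-126463140, minus strand) from the start. The sixth shows a CArG box, a site of serum response factor that holds CC, 6 bases of A or T and GG, at -47 in *Actc1*, cardiac α-actin (chr2:114052903-114052932, minus strand). It was present in 6 of 34 sarcomere promoters (17.6%) and in 1.57% of all promoters.
Myh4 E-box: ccgcagctaggaCAGCTGaggtggctgctg
Chrng E-box: atatcctgggaaCAGCTGacaatgcagtgg
Cox8b E-box: tgtgacaggagaCAGCTGcagctctccacc
Ckm E-box: cCAGCTGtcccccgccagc
Atp2a1 E-box: cctcataaggacCAGCTGggggctgggggg
Actc1 CArG box: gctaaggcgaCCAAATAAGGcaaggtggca
A match is a string of letters in a window and not a site shown to be bound. *Actc1* itself had an AEV of 1816 ± 55.4 in BMP2-treated cells and 25579 ± 1127 in untreated cells (log2 ratio -3.82, SE 0.1, adjusted p = 2.92e-18).

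Most direct target genes of the BMP SMADs were higher with BMP2 than without it at d6. Of 27 genes on this list, 17 were higher and 2 lower. The median log2 ratio was 1.54, or 1.29 with values under 50 set to 50. Set against d0, 11 of the 27 were higher and 1 lower in BMP2-treated cells (median 0.80). In untreated cells 2 were higher and 11 lower than at d0 (median -0.60), so the ratio also holds a fall in untreated cells. Both share the d0 arrays. *Id1*, an inhibitor of E proteins and the classic target, read 4327, 4633 and 4526 in BMP2-treated cells, against 1384, 1372 and 1354 in untreated cells, every BMP2-treated array being the higher (log2 ratio 1.71, SE 0.068, adjusted p = 3.81e-15). *Id2* and *Id3* had log2 ratios of 2.35 and 2.49, and *Id4* was at 159 against 35.5. *Smad6*, the inhibitory SMAD of the BMP branch, read 3565, 3727 and 3975 in BMP2-treated cells, against 92.9, 117 and 159 in untreated cells and stood apart in all arrays (log2 ratio 4.97, SE 0.14, adjusted p = 1.2e-17). *Smad7*, which blocks both branches, had an AEV of 1207 ± 42.0 in BMP2-treated cells and 322 ± 28.1 in untreated cells, and *Bambi*, a pseudoreceptor that dampens the signal, 261 ± 43.3 in BMP2-treated cells and 29.7 ± 6.16 in untreated cells; their log2 ratios were 1.91 and 3.14, the second being 2.37 with values under 50 set to 50.

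Transcription factors on the list were also higher. *Hey1*, a repressor shared with the Notch pathway, read 3824, 3805 and 3803 in BMP2-treated cells, against 228, 254 and 197 in untreated cells (log2 ratio 4.08, SE 0.12, adjusted p = 1.21e-17). *Atoh8*, a basic helix-loop-helix factor, was at 374 ± 39.1 in BMP2-treated cells and 13.1 ± 6.7 in untreated cells, and the homeobox genes *Dlx1* and *Dlx2* at 295 against 5.9 and 1205 against 74.2. In untreated cells *Dlx1* and *Atoh8* were far below the median of all values, and with values under 50 set to 50 their log2 ratios were 2.56 and 2.90 in place of 5.68 and 4.95. *Klf10*, an early target of the TGF-β family, and *Prrx2*, a homeobox gene of mesenchyme, had log2 ratios of 1.29 and 1.54. The 2 lower genes were *Cdkn1a*, for the cell cycle inhibitor p21, with 7846 ± 539 in BMP2-treated cells and 17961 ± 674 in untreated cells (log2 ratio -1.20, SE 0.079, adjusted p = 2.42e-11), and *Tob1*, an antiproliferative protein, with a log2 ratio of -0.71. *Smad9*, *Nog*, *Hes1*, *Dlx5*, *Gata2*, *Gata3*, *Gata6* and *Lef1* were not called. *Dlx5*, a homeobox gene of bone, was dim at 47.2 against 10.7 (log2 ratio 2.50, adjusted p = 0.00669), and it passed as higher in 4 of its 15 alternatives, without untreated replicate 3 (log2 ratio 3.21, adjusted p = 0.00118), with array weights, with an offset added before log2 and with only C2C12-pMirn0 arrays in the fit.

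The sequence GGCGCC, a GC-rich element that BMP SMADs bind and that reads the same on both strands, was present in 3 of the 13 promoters of called target genes with an entry and in 6 of 17 on the whole list (35.3%), beside 23.5% of the promoters of higher genes, 18.1% of those of lower genes, 18.1% of all 14453 genes with an entry and 3233 of the 27025 promoters in the table. The windows of *Id2* (chr12:25096306-25096335, minus strand, first base of the motif at -231) and *Dlx2* (chr2:71546836-71546865, minus strand, at -99) are shown as 2 of the 3 called genes that hold it, with the motif in capitals.
Id2 GC-rich element: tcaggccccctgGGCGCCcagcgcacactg
Dlx2 GC-rich element: tcgcggactcccGGCGCCccgcggctcatt

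The components of the BMP pathway itself moved in both directions, 10 of 35 higher and 9 lower. Among ligands, *Bmp4* fell, with AEVs of 566 ± 61.4 in BMP2-treated cells and 1926 ± 79.98 in untreated cells (log2 ratio -1.77, SE 0.23, adjusted p = 1.23e-06), and *Gdf5*, a joint and cartilage ligand, was at 23.8 against 528 (log2 ratio -4.49, or -3.39 at the floor of 50), while *Bmp2* itself was dim in both groups, at 6.66 against 11.5. Among receptors, *Acvr1*, a type I receptor, was higher (4449 against 1956, log2 ratio 1.19) and *Acvr2a*, a type II receptor, lower (768 against 1959.7, log2 ratio -1.35), and *Bmpr1a* and *Bmpr2* had log2 ratios of -0.31 and 0.02 and were not called. Of the receptor SMADs, *Smad1* was higher (log2 ratio 0.73) and *Smad5* was not called (0.35). The ubiquitin ligases *Smurf1* and *Smurf2*, which mark SMADs for decay, were both higher, by 0.84 and 1.23 on the log2 scale.

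The secreted antagonists split. *Fst*, for follistatin, which binds activins and some BMPs, was at 1088 ± 44.5 in BMP2-treated cells and 4304 ± 285 in untreated cells, and *Bmper*, a matrix modulator of BMPs, read 113, 102 and 94.8 in BMP2-treated cells, against 1499, 1375 and 1571 in untreated cells. Both were lower on every BMP2-treated array, with log2 ratios of -1.98 and -3.85. *Chrd*, for chordin, fell by 1.51. *Nbl1*, a DAN family antagonist, and *Crim1* were higher, at log2 ratios of 0.91 and 1.78, and *Fstl1*, a secreted follistatin-like protein, was at 20230.4 against 9984. *Grem1*, for gremlin, was abundant in both groups at 1111 against 977 and was not called.

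Of 22 genes of the TGF-β and activin branch, 5 were higher and 5 lower. *Inhba*, the activin A subunit, was higher, with 8713, 9410.3 and 8742 in BMP2-treated cells, against 1576, 1515 and 1591 in untreated cells, whereas *Inhbb*, the activin B subunit, was lower, with 724, 818 and 717 in BMP2-treated cells, against 3614, 3418 and 3653 in untreated cells. Neither pair of groups overlapped (log2 ratios 2.52 and -2.24, adjusted p = 8.69e-17 and 4.21e-14). The receptors *Tgfbr1* and *Tgfbr2* fell by 0.79 and 1.57, *Smad3*, the SMAD of this branch, by 0.80, and the ligand *Tgfb3* by 1.35. *Tgfbi*, a matrix protein induced by TGF-β, and *Ltbp1*, which stores the latent ligand, were higher, by 2.60 and 1.53.

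**Figure D2:**
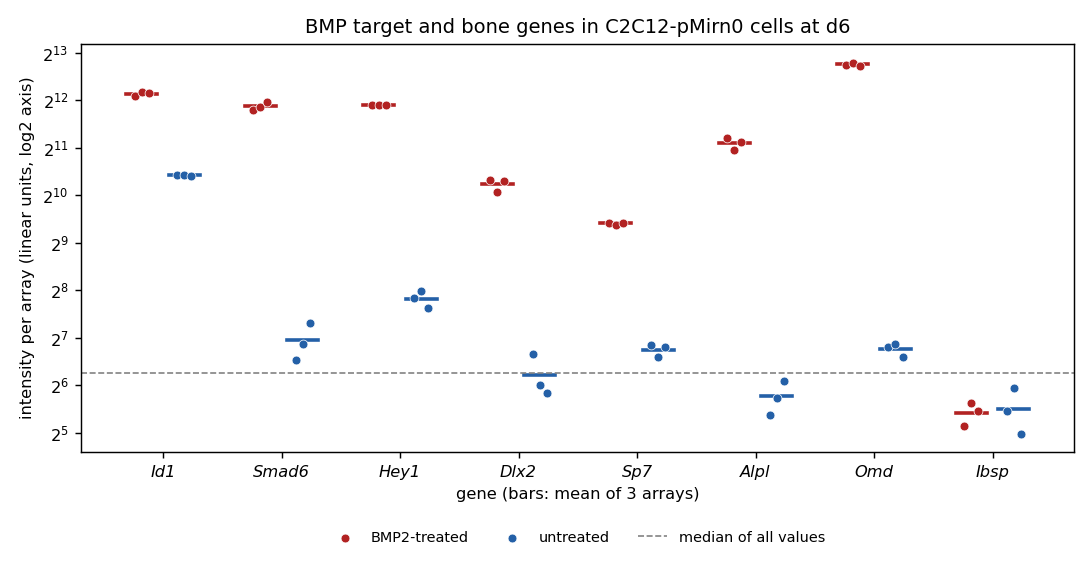
Intensity (log2 axis) of 8 BMP target and bone genes on each array, with BMP2-treated arrays (red) left of untreated arrays (blue) and a bar at the mean of each group. In each gene except *Ibsp* the 3 BMP2-treated points lie above the 3 untreated points, and for *Ibsp* both groups lie under the dashed line at the median of all values (76.46).

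Of 18 transcription factors of the skeletal lineages, 9 were higher and 1 lower. The median log2 ratio was 0.87, or 0.58 with values under 50 set to 50. The list was written with 21 genes, of which these 18 had a probe set with a single gene symbol. *Runx2*, which the study plots among its osteogenic factors, is not reported here. *Sp7*, for osterix, which osteoblasts require, read 685, 666 and 684 in BMP2-treated cells, against 114, 96.2 and 111 in untreated cells (log2 ratio 2.67, SE 0.2, adjusted p = 2.8e-10), and the untreated arrays lay close to the median of all values. *Dlx3*, a homeobox gene of bone and hair, was at 416 against 85.1, and *Foxc2* and *Twist2*, of mesenchyme, at 1426 against 282 and 839.6 against 230.4 (log2 ratios 2.31, 2.35 and 1.87). *Fosl1* and *Fosl2*, the Fra proteins of AP-1, were higher by 2.19 and 1.10. *Runx1*, a runt factor of blood and cartilage, was the lower one, at 379 ± 65.7 in BMP2-treated cells and 1337 ± 113 in untreated cells (log2 ratio -1.83, SE 0.15, adjusted p = 1.13e-09). *Atf4*, a factor of stress and of osteoblasts, and *Cbfb*, the partner of runt factors, were abundant and not called, at 14753 against 10459 and 5531 against 6862.

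The calls of *Foxc1*, *Msx2* and *Zfp521* on this list were less firm, with log2 ratios of 0.69, 1.02 and 0.72. *Foxc1* lost its call without any single array other than untreated replicate 3, *Msx2* without untreated replicate 3 or any BMP2-treated array, and *Zfp521* without untreated replicate 1 or 2 or BMP2-treated replicate 1. With 1 array left out, their log2 ratios ran from 0.59 to 0.78, 0.79 to 1.14 and 0.64 to 0.83, and 6 to 9 of the 18 genes were called higher.

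Bone matrix genes gave 8 higher and 4 lower of 26. *Alpl*, the phosphatase that frees phosphate for mineral, read 2369, 1983 and 2221 in BMP2-treated cells, against 41.5, 53.4 and 68.1 in untreated cells, and no BMP2-treated array came near an untreated one (log2 ratio 5.36, SE 0.21, adjusted p = 2.55e-15). *Omd*, a keratan sulfate proteoglycan of bone, read 6891, 7092 and 6789 in BMP2-treated cells, against 112, 116 and 96.9 in untreated cells (log2 ratio 6.00, SE 0.15, adjusted p = 1.96e-18). *Kazald1*, a secreted protein related to the IGF-binding proteins, was at 891 ± 18.8 in BMP2-treated cells and 82.9 ± 8.05 in untreated cells, and the receptors *Vdr* (vitamin D), *Pth1r* (parathyroid hormone) and *Pdgfra* (PDGF) had log2 ratios of 2.27, 2.42 and 2.12. *Cdh11*, the cadherin of osteoblasts, was at 9556 against 4737. The lower ones held *Mgp*, matrix Gla protein, an inhibitor of calcification, at 747 ± 75.1 in BMP2-treated cells and 15874 ± 1028 in untreated cells (log2 ratio -4.41, SE 0.093, adjusted p = 8.36e-20), *Npnt*, for nephronectin, at 2882 against 8089, *Slc20a2*, a phosphate transporter, at 555 against 1215, and *Ank*, which exports pyrophosphate, at 4361 against 7536. *Sparc* and *Col1a2* were abundant in both groups, at 30091 against 23523 and 23819.6 against 16410.2, and were not called.

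Cartilage genes moved less, with 3 of 23 higher and 0 lower. *Col2a1*, the collagen of cartilage, read 370.0, 332 and 328 in BMP2-treated cells, against 2.42, 11.8 and 16.7 in untreated cells, widely spread within the untreated group but without overlap (log2 ratio 5.46, SE 0.6, adjusted p = 1.24e-07, and 2.78 with values under 50 set to 50). *Matn2*, a matrilin found beyond cartilage, was at 5432 against 1508. *Sox9*, the master factor of chondrocytes, was at 628 against 476, and *Acan* (aggrecan) and *Comp* were below the median of all values in both groups, at 41.2 against 43.3 and 38.3 against 33.0; none of these was called.

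The 12 genes with the largest rises were led by secreted proteins. *Car6*, the secreted carbonic anhydrase of saliva, ranked first with 9355, 8575 and 8897 in BMP2-treated cells, against 60.7, 60.1 and 53.2 in untreated cells (log2 ratio 7.27, SE 0.3, adjusted p = 6.29e-15). *Prg4*, for lubricin of joint surfaces and tendon, read 14649.6, 15905 and 16419.9 in BMP2-treated cells, against 167, 143 and 145 in untreated cells (log2 ratio 6.69, SE 0.14, adjusted p = 8.19e-20). *Scara5*, a ferritin receptor, was at 7334 against 86.9 and *Panx3*, a channel protein of osteoblasts and cartilage, at 1935 against 26.7. *Cdsn*, a protein of skin desmosomes, was at 5895 against 134, and the small GTPases *Diras2* and *Rasl11a* at 2113 against 28.2 and 2105 against 19.2. *Alpl* closed the list of 12, which also held *Fabp4*, *Omd*, *Fmod* and *Prelp*. *Fmod* and *Prelp* ranked there on other probe sets than those read below. Their log2 ratios on these were 5.64 and 5.86, the second being 5.39 with values under 50 set to 50.

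Small leucine-rich proteoglycans, which sit on collagen fibrils, were higher in part, 7 of 13 being higher and 0 lower, with a median log2 ratio of 1.17. *Fmod*, for fibromodulin, read 10147, 12109.6 and 10462 in BMP2-treated cells, against 116, 173 and 133 in untreated cells (log2 ratio 6.29, SE 0.27, adjusted p = 1.05e-14), and *Aspn*, for asporin, 11696, 9899 and 11546 in BMP2-treated cells, against 410.1, 445 and 636 in untreated cells (log2 ratio 4.50, SE 0.25, adjusted p = 1.39e-12). *Prelp*, *Lum* (lumican), *Dcn* (decorin) and *Ogn* (osteoglycin) had log2 ratios of 4.19, 3.78, 2.00 and 1.17. *Bgn*, for biglycan, was abundant in both groups at 18005 against 18685 and not called.

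Of 26 collagen genes, 9 were higher and 4 lower. Type VI was higher in the 3 chains on the list, *Col6a1* at 6927 against 2379, *Col6a2* at 4696 against 1905 and *Col6a3* at 7249.8 against 3559, as was *Col5a1* at 12314 against 5863. Type IV of basement membranes was lower, *Col4a1* at 1290.0 ± 70.1 in BMP2-treated cells and 5132 ± 243 in untreated cells and *Col4a2* at 892 ± 44.1 in BMP2-treated cells and 3395 ± 150.0 in untreated cells (log2 ratios -1.99 and -1.93), and *Col25a1*, a membrane collagen of muscle needed for its innervation, fell by 5.19. The fibrillar *Col3a1* and *Col5a2* were not called.

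Of 34 matricellular and matrix-processing genes, 13 were higher and 5 lower. *Tnn*, for tenascin N, read 1236, 1048 and 1074 in BMP2-treated cells, against 19.6, 5.89 and 15.2 in untreated cells (log2 ratio 6.53, SE 0.56, adjusted p = 2.29e-09, and 4.48 at the floor of 50), and *Tnc*, for tenascin C, was at 5406 against 2057. *Ccn2*, a growth factor-binding matrix protein, was at 17582 ± 1018 in BMP2-treated cells and 4732 ± 313 in untreated cells, *Timp3*, a protease inhibitor held in the matrix, at 17870.3 ± 931 in BMP2-treated cells and 3046 ± 195 in untreated cells, and *Mmp11*, stromelysin 3, at 5177 ± 312 in BMP2-treated cells and 875 ± 109 in untreated cells (log2 ratios 1.89, 2.55 and 2.57). *Thbs1*, *Adamts5* and *Loxl1* fell by 1.13, 1.08 and 1.28, while *Thbs2* and *Thbs3* were higher by 1.30 and 2.00.

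Genes of fat cells were partly higher. Of 18 adipocyte genes, 8 were higher and 1 lower (median 0.87, or 0.33 with values under 50 set to 50). *Fabp4*, the fatty acid-binding protein of adipocytes, read 4165, 4151 and 3969.6 in BMP2-treated cells, against 20.6, 28.3 and 35.8 in untreated cells (log2 ratio 7.22, SE 0.57, adjusted p = 5e-10, and 6.36 at the floor of 50). *Pparg*, the master factor of fat cells, was at 328 ± 56.8 in BMP2-treated cells and 73.4 ± 15.97 in untreated cells, and *Cebpb* and *Cebpd*, which act before it, at 10254 against 4204 and 1709 against 695. *Lpl*, lipoprotein lipase, had a log2 ratio of 1.61. The fatty acid transporter *Cd36*, which muscle also carries, was lower, at 228 ± 23.4 in BMP2-treated cells and 1961 ± 95.8 in untreated cells (log2 ratio -3.11, SE 0.13, adjusted p = 9.06e-15). Adiponectin (*Adipoq*), leptin (*Lep*) and resistin (*Retn*) were below the median of all values in both groups, at 19.7 against 11.7, 4.27 against 2.46 and 8.73 against 9.2.

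Smooth muscle genes gave 1 higher and 5 lower of 17. *Acta2*, smooth muscle actin, was at 21571 against 25021 and not called. *Cnn1*, for calponin, was the higher one, at 342 against 46.5, and *Synpo2* (myopodin, also in skeletal muscle) and *Mylk*, myosin light chain kinase, fell by 3.17 and 1.74. *Myh11* and *Myocd*, which define mature smooth muscle, were below the median of all values, at 24.9 against 22.4 and 16.9 against 10.4.

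**Figure D3:**
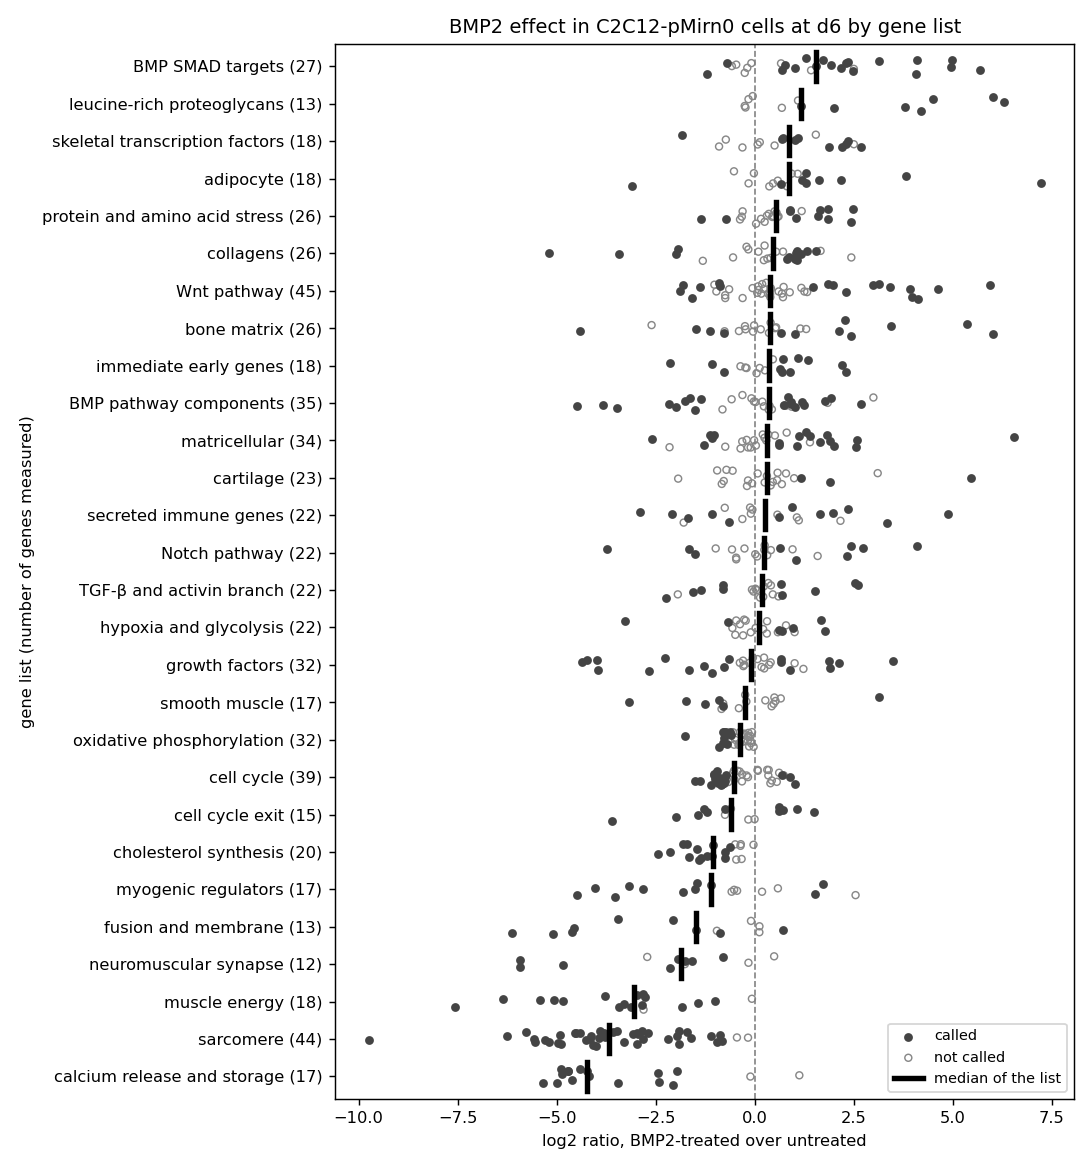
Log2 ratio of BMP2-treated over untreated C2C12-pMirn0 cells at d6 for each measured gene of 28 lists (filled points are called, open points are not) with the median of the list as a black bar, the dashed line standing at 0. The muscle lists lie to the left, with the sarcomere median at -3.69, and the BMP target list lies to the right, with its median at 1.54.

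Wnt pathway genes were 12 higher and 6 lower of 45. The higher genes included 3 ligand-binding inhibitors and R-spondins with their receptors. *Wif1*, which traps Wnt ligands, read 1266, 1215 and 1104 in BMP2-treated cells, against 20.7, 15.5 and 22.8 in untreated cells, *Sfrp2*, a secreted Frizzled-like inhibitor, was at 3147 ± 128 in BMP2-treated cells and 180.2 ± 9.67 in untreated cells, and *Sfrp4* at 637 against 80.7. *Rspo2* and *Rspo3*, which amplify Wnt signals, were at 891 against 36.8 and 483 against 30.8, and their receptors *Lgr4* and *Lgr6* at 7551 against 717 and 1607 against 107. These 7 genes had log2 ratios of 2.98 to 5.94, the last being 4.58 at the floor of 50. *Notum*, an enzyme that inactivates Wnt proteins, was also higher, at 296 ± 54.8 in BMP2-treated cells and 37.1 ± 22.3 in untreated cells (log2 ratio 3.13, SE 0.42, adjusted p = 1.92e-06). Of the ligands, *Wnt5a*, of non-canonical signalling, read 199.9, 184 and 119 in BMP2-treated cells, against 40.4, 46.0 and 49.1 in untreated cells, the BMP2-treated arrays being the higher (log2 ratio 1.86, SE 0.45, adjusted p = 0.0022). It lost its call without any single array other than BMP2-treated replicate 3, at log2 ratios of 1.71 to 1.92 and an adjusted p of up to 0.0131. *Wnt4* was higher (log2 ratio 2.29), *Wnt10a* and *Wnt9a* were lower (-1.90 and -1.82), and of the Frizzled receptors *Fzd4* and *Fzd5* were higher and *Fzd1*, *Fzd2* and *Fzd3* lower. The inhibitor *Dkk2* was lower as well, at 59.0 against 109.6 (log2 ratio -0.92), but lost its call in 8 of 16 alternatives, among them each that left out 1 array other than BMP2-treated replicate 2 (adjusted p of up to 0.0335). *Axin2*, a common target of β-catenin, was at 90.2 against 152 and not called.

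Of 22 Notch genes, 6 were higher and 3 lower. *Jag1*, a ligand, was at 2811 ± 176 in BMP2-treated cells and 423 ± 53.7 in untreated cells (log2 ratio 2.74, SE 0.12, adjusted p = 2.65e-14) and *Rbpj*, the DNA-binding factor of the pathway, at 5868 ± 56.0 in BMP2-treated cells and 1098 ± 65.0 in untreated cells (log2 ratio 2.42, SE 0.079, adjusted p = 1.31e-16). Of the HES and HEY family genes, *Hey1* was higher as above, *Hes6*, which promotes myogenesis, was lower, at 475 ± 36.6 in BMP2-treated cells and 6345 ± 160.2 in untreated cells (log2 ratio -3.74, SE 0.08, adjusted p = 9.46e-20), and *Heyl* fell by 1.50. *Notch1* and *Notch3* were not called. On the mean of the probe sets of each gene, 3 of the 22 were higher in place of 6.

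Of 32 growth factor genes, 7 were higher and 11 lower. *Igf1*, insulin-like growth factor 1, read 105, 89.0 and 89.8 in BMP2-treated cells, against 1436, 1547 and 1473 in untreated cells, lower on every BMP2-treated array (log2 ratio -3.98, SE 0.31, adjusted p = 3.72e-10). *Fgf21*, a stress hormone, was at 293 ± 30.7 in BMP2-treated cells and 5549.8 ± 317 in untreated cells (log2 ratio -4.25, SE 0.11, adjusted p = 3.71e-18), and *Fgfrl1*, a decoy FGF receptor, fell by 2.66. *Fgf7*, keratinocyte growth factor, was higher, at 2395 ± 21.9 in BMP2-treated cells and 219.7 ± 59.2 in untreated cells (log2 ratio 3.48, SE 0.16, adjusted p = 5.31e-14), and *Fgf10* was at 119 against 32.4. *Fgfr3*, the FGF receptor of the growth plate, was higher, at 438 ± 45.7 in BMP2-treated cells and 278 ± 16.7 in untreated cells (log2 ratio 0.66, SE 0.14, adjusted p = 0.000781), close to the minimum of 0.6. It lost its call without untreated replicate 3 or BMP2-treated replicate 3 (log2 ratios 0.61 and 0.57), under both other scalings and with only the 6 arrays of the comparison in the fit. *Pdgfra* was higher as above, and *Pdgfrb* was abundant in both groups and not called (5961 against 4653).

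Cell cycle genes were low in both cultures. All 39 genes of the list stood below their d0 level at d6 with BMP2 (median log2 ratio -3.79) and without it (-3.22), the 2 sharing the d0 arrays, beside the shares of all genes lower than d0 given with the sarcomere genes (10.7% and 12.2%). Between the treatments 16 of 39 were lower with BMP2 and 3 higher. The lower ones included genes of mitosis, *Mki67* (the Ki-67 antigen) at 185 ± 15.5 in BMP2-treated cells and 528 ± 77.8 in untreated cells, *Ccnb2* (cyclin B2) at 185 against 377 and *Cenpf* (a kinetochore protein) at 152 against 328, with log2 ratios of -1.50, -1.03 and -1.11. *Ccna2*, cyclin A2, was at 281 against 521 (log2 ratio -0.89, SE 0.13, adjusted p = 6.73e-06). *Cdc7*, a kinase that starts replication, was at 96.2 against 141 and not called (log2 ratio -0.56, adjusted p = 0.00145), and it passed as lower without BMP2-treated replicate 3 (log2 ratio -0.60) and under both other scalings. The 3 higher ones were *Mcm2* and *Mcm3*, of the replicative helicase, and *E2f1*, at 676 against 332, 579 against 358 and 316 against 174. *Cdk1* and *Cdc20* were not called (707 against 958 and 309 against 447). With only the 6 arrays of the comparison in the fit, 8 were called lower.

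Genes of cycle exit gave 5 higher and 6 lower of 15. *Cdkn1c* and *Cdkn2c*, for the inhibitors p57 and p18, were lower, at 45.8 ± 6.16 in BMP2-treated cells and 557 ± 77.3 in untreated cells and 530.3 ± 18.6 in BMP2-treated cells and 1296 ± 62.3 in untreated cells, as were *Ccnd3*, the cyclin D of muscle, at 1740.5 ± 63.5 in BMP2-treated cells and 6886 ± 207 in untreated cells, and *Rb1*, the retinoblastoma gene, at 1577 against 4269. *Ccnd1* and *Ccnd2* were higher, at 2761 ± 111 in BMP2-treated cells and 978 ± 74.8 in untreated cells and 3445 against 1656. *Cdk4*, the kinase partner of the D cyclins, was higher, at 3876 ± 204 in BMP2-treated cells and 2554 ± 160.4 in untreated cells (log2 ratio 0.60, SE 0.1, adjusted p = 4.02e-05). Its ratio lay at the minimum of 0.6, and the call was lost in 7 of 16 alternatives, among them those without untreated replicate 3 or BMP2-treated replicate 2 or 3 (log2 ratios 0.55, 0.57 and 0.60). *Cdkn1b*, for p27, had a log2 ratio of -0.01. Without untreated replicate 3, without BMP2-treated replicate 3 and after scaling to the brighter probe sets 3 of the 15 were higher, and 2 were with only the 6 arrays of the comparison in the fit.

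Cholesterol synthesis was lower as a group, with 14 of 20 genes lower and 0 higher (median -1.06). *Hmgcs1*, at the entry of the pathway, read 2356, 2523 and 2165 in BMP2-treated cells, against 6277, 6085 and 6328 in untreated cells (log2 ratio -1.41, SE 0.079, adjusted p = 1.44e-12). *Cyp51*, which removes the methyl group of lanosterol, was at 594 ± 19.4 in BMP2-treated cells and 2622 ± 90.2 in untreated cells, and *Fdps*, *Idi1*, *Ebp* and *Dhcr7*, further enzymes of the pathway, fell by 1.66, 1.82, 2.44 and 1.71 on the log2 scale. *Insig1*, which holds the sterol sensor in the reticulum, fell by 1.46. The sterol response element TCACNCCAC was found in 1 of 16 promoters of the list (6.25%), beside 1.22% of all promoters, and that one is the *Hmgcs1* window at chr13:119690204-119690232 (plus strand, motif in capitals from -137).
Hmgcs1 sterol element: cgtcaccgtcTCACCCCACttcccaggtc

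Genes of the unfolded protein and amino acid stress response were 9 higher and 2 lower of 26 (median 0.52). *Ddit3*, for the stress factor CHOP, read 8812, 8754 and 9072 in BMP2-treated cells, against 1773, 1488 and 1556 in untreated cells (log2 ratio 2.47, SE 0.11, adjusted p = 1.23e-14), and *Trib3* and *Sesn2*, 2 of its companions downstream of ATF4, were at 6034 against 1134 and 1348 against 376. *Ern1*, for the stress sensor IRE1, and *Edem1*, of reticulum-associated degradation, had log2 ratios of 1.59 and 1.64. The chaperone *Hspa5* (BiP) was abundant and not called (16212 against 11859), and *Psat1*, of serine synthesis, was lower, at 3817 ± 92.6 in BMP2-treated cells and 9726 ± 622 in untreated cells (log2 ratio -1.35, SE 0.11, adjusted p = 9.19e-10).

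Hypoxia and glycolysis genes gave 5 higher and 2 lower of 22. *Vegfa*, vascular endothelial growth factor, was at 6126 ± 443 in BMP2-treated cells and 1801 ± 106 in untreated cells (log2 ratio 1.76, SE 0.1, adjusted p = 1.8e-12), *Ndrg1*, a stress-responsive protein, at 8016 ± 76.7 in BMP2-treated cells and 2533 ± 115 in untreated cells, and *Egln3*, an oxygen-sensing hydroxylase, was lower, at 323 ± 17.8 in BMP2-treated cells and 3127 ± 214 in untreated cells (log2 ratio -3.27, SE 0.095, adjusted p = 1.48e-17). Of 18 immediate early genes 8 were higher and 3 lower, *Myc* at 4197 ± 87.9 in BMP2-treated cells and 850.4 ± 44.1 in untreated cells and *Klf4* at 14523 ± 464 in BMP2-treated cells and 5778 ± 409 in untreated cells among the first and *Egr3* at 672 ± 39.4 in BMP2-treated cells and 2953 ± 251 in untreated cells among the second. Of 22 secreted immune genes 7 were higher and 5 lower. *Ptx3*, a soluble pattern receptor, read 7832, 7507 and 7287 in BMP2-treated cells, against 287, 239.7 and 251 in untreated cells (log2 ratio 4.87, SE 0.11, adjusted p = 4.06e-19), the chemokines *Cxcl1* and *Cxcl5* were at 2093 against 209 and 1024 against 204, and *Ccl2* fell by 1.08.

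Markers of other cell types were mostly dim. Of 10 endothelial markers 0 were called, and the intensities of the list summed on each array to 324 to 457 with BMP2 and 343.5 to 436 without it. Of 10 leukocyte markers 1, *Cd14*, was higher, the list summing to 962 to 1092 with BMP2 and 742 to 826 without it, and *Ptprc* (CD45) read 2.83 against 9.56. Of 10 markers of neurons and glia 4 were lower, *Nefl*, *Nefm*, *Tubb3* and *Map2*, and the list summed to 631 to 699 with BMP2 and 1841 to 2358 without it, while *Snap25* and *Gfap* were below the median of all values in both groups. Of 9 epithelial markers 2 were higher, among them *Krt14* at 797 against 48.3, and 2 lower (1 was higher without untreated replicate 1 or 2 or BMP2-treated replicate 1), *Krt19* at 9.32 against 389 (log2 ratio -5.76, or -2.96 at the floor of 50) and *Cdh1* at 25.7 against 200.1. The part of other cell types in these values was not tested.

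The BMP2 effect at d6 was then set against the effect at d3 in the same line, which shares no arrays with it. Here and below an effect is higher or lower by its signed log2 ratio, so that a steeper fall is a lower effect. The effect at d6 was higher than at d3 for 605 probe sets (1.34%) and lower for 1111 (2.46%), for 1.55% and 2.99% of those with 1 symbol and for 1.82% and 4.03% of the 18194 genes. *Gsta2*, a glutathione transferase, had the highest log2 difference after the floor of 50 among genes, with AEVs of 701 ± 28.0 at d0, 330.4 ± 46.2 at d3 and 2619 ± 126 at d6 with BMP2, and 259 ± 37.5 at d3 and 197 ± 14.4 at d6 untreated. BMP2 had a log2 ratio of 3.73 at d6 and 0.35 at d3 (log2 difference 3.38, SE 0.22, adjusted p = 1.17e-09). *Mmp13*, the collagenase of bone and cartilage, had 13.4 ± 7.36 at d0, 17.8 ± 10.6 at d3 and 212 ± 17.1 at d6 with BMP2, and 131 ± 21.5 at d3 and 81.5 ± 12.8 at d6 untreated, and *Car6* 36.2 ± 16.4 at d0, 2493 ± 147 at d3 and 8942 ± 392 at d6 with BMP2, and 90.3 ± 11.5 at d3 and 58.0 ± 4.19 at d6 untreated. The log2 ratios of *Mmp13* were 1.39 at d6, not called, and -3.06 at d3 (log2 difference 4.45, SE 0.75, adjusted p = 0.000296), and those of *Car6* were 7.27 and 4.79 (log2 difference 2.48, SE 0.42, adjusted p = 0.000324). *Avil*, an actin-binding protein, *Chchd10*, of mitochondria, and *Hoatz* completed the 6 highest, with log2 differences of 3.58, 2.72 and 2.56. The call of *Avil* was lost without d3 untreated replicate 2, d3 BMP2-treated replicate 2 or d6 untreated replicate 1 or 2, at an adjusted p of up to 0.00592.

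Among the lowest differences were genes whose untreated level was higher at d6 than at d3. *Postn*, for periostin, had 223 ± 28.9 at d0, 15882 ± 775 at d3 and 10891 ± 191 at d6 with BMP2, and 1101 ± 53.3 at d3 and 11061 ± 722 at d6 untreated. Its log2 ratio was -0.02 at d6 and 3.85 at d3 (log2 difference -3.87, SE 0.13, adjusted p = 2.35e-14). *Ighm*, the heavy chain of IgM on the platform's annotation, read 13.3 ± 3.88 at d0, 32.1 ± 32.6 at d3 and 17.6 ± 2.43 at d6 with BMP2, and 23.7 ± 21.0 at d3 and 1075 ± 75.9 at d6 untreated, and *Cilp* 26.1 ± 4.94 at d0, 106 ± 11.9 at d3 and 43.1 ± 15.97 at d6 with BMP2, and 289 ± 24.8 at d3 and 3111 ± 64.5 at d6 untreated. *Ighm* lay below the median of all values with BMP2 at both days, and *Cilp* did at d6 (log2 difference -6.26, SE 0.79, adjusted p = 1.03e-05 for *Ighm*, and log2 difference -4.78, SE 0.39, adjusted p = 2.8e-08 for *Cilp*). *Cd24a*, a surface protein, had a log2 ratio of -0.81 at d6 and 3.39 at d3, and *Col8a1* and *Tspan8* had log2 differences of -3.73 and -4.78.

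By list, the cell cycle genes stood out, with 19 of 39 lower in effect at d6 than at d3 and 0 higher. At d3, 14 of the 39 were higher with BMP2 than without and 0 lower, beside 11.1% higher and 8.4% lower of all 18194 genes at d3. *Mki67* read 486 with BMP2 against 399.6 untreated at d3, and its log2 ratio was -1.50 at d6 and 0.28 at d3 (log2 difference -1.78, SE 0.18, adjusted p = 4.41e-07). Of the 26 stress genes 9 were higher in effect at d6 and 0 lower, *Sesn2* among them (log2 difference 1.54, SE 0.21, adjusted p = 3.2e-05). Of 44 sarcomere genes 12 had a lower log2 ratio at d6 and 0 a higher one, the list median being -3.03 at d3 and -3.69 at d6. Of 34 matricellular genes 3 had a higher ratio at d6 and 10 a lower one.

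**Figure D4:**
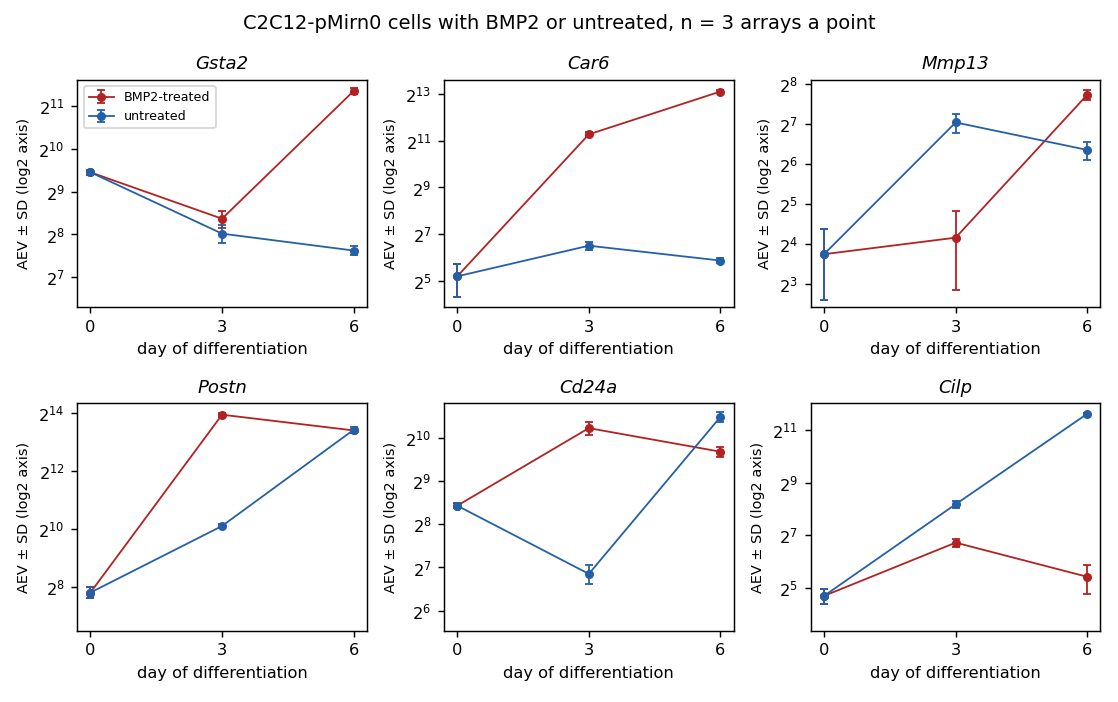
AEV (log2 axis) with SD of 6 genes in C2C12-pMirn0 cells at d0, d3 and d6, with BMP2 in red and untreated in blue, both lines starting from the same d0 arrays. *Gsta2*, *Car6* and *Mmp13* separate upwards with BMP2 at d6, while *Postn* and *Cd24a* are above the untreated line at d3 and close to it or below it at d6, and *Cilp* rises late in untreated cells.

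The effect at d6 was last set against that in C2C12-pMirn378 cells, which again shares no arrays with it. It differed for fewer probe sets, the log2 ratio of C2C12-pMirn378 cells being the higher for 265 (0.588%) and the lower for 310 (0.687%), for 0.715% and 0.824% of those with 1 symbol and for 1.03% and 0.995% of genes. With only the 12 arrays of the comparison in the fit, 42 and 51 probe sets were called. *Ctsh*, for cathepsin H, had AEVs of 5769 ± 708 in treated and 332 ± 13.4 in untreated C2C12-pMirn378 cells, against 1503 ± 95.9 in BMP2-treated cells and 474 ± 42.6 in untreated cells of the C2C12-pMirn0 line (log2 difference 2.44, SE 0.14, adjusted p = 2.43e-09). *Krt31*, a hair keratin, had 623 ± 94.7 in treated and 258 ± 18.9 in untreated C2C12-pMirn378 cells, against 58.7 ± 12.4 in BMP2-treated cells and 313 ± 5.31 in untreated cells of the control line (log2 difference 3.70, SE 0.26, adjusted p = 3.1e-08), so that BMP2 had a log2 ratio of 1.26 in C2C12-pMirn378 and -2.44 in C2C12-pMirn0 cells. *Hp* (haptoglobin), *Casp9*, *Aldh1a3* (a retinaldehyde dehydrogenase) and *Lrrc15* were the others of the 6 highest, with log2 differences of 5.87, 3.48, 3.46 and 4.41. All 4 were at or below an AEV of 118 in both C2C12-pMirn0 groups.

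On the other side, *Car8*, a carbonic anhydrase-related protein, had 206 ± 12.5 in treated and 375 ± 54.6 in untreated C2C12-pMirn378 cells, against 525 ± 6.22 in BMP2-treated cells and 104 ± 13.6 in untreated cells of the control line (log2 difference -3.21, SE 0.23, adjusted p = 3.1e-08). *Igfbp3*, an IGF-binding protein, had 83.6 ± 24.4 in treated and 86.9 ± 24.3 in untreated C2C12-pMirn378 cells, against 478 ± 74.1 in BMP2-treated cells and 70.7 ± 25.8 in untreated cells of the control line (log2 difference -2.86, SE 0.53, adjusted p = 0.00225). *Avil*, *Tenm4*, *Dscc1* and *Rerg* had log2 differences of -3.89, -3.02, -2.63 and -2.24. Of the 44 sarcomere genes the log2 ratio was lower in C2C12-pMirn378 cells for 16 and higher for 1, *Actn3*, for fast α-actinin (log2 difference 0.73, SE 0.14, adjusted p = 0.0022). *Myh3*, the embryonic myosin heavy chain, was at 265 ± 41.6 in treated and 16044 ± 1978 in untreated C2C12-pMirn378 cells, against 1258 ± 115 in BMP2-treated cells and 19287 ± 1387 in untreated cells of the control line (log2 difference -1.99, SE 0.18, adjusted p = 3.32e-07). On leaving out 1 array at a time, the calls of *Lrrc15*, *Igfbp3*, *Actn3* and *Avil* were lost in 10, 9, 8 and 7 of 12 cases, with arrays of all 4 groups among them and adjusted p of up to 0.0167, 0.00942, 0.00879 and 0.00748.

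**Figure D5:**
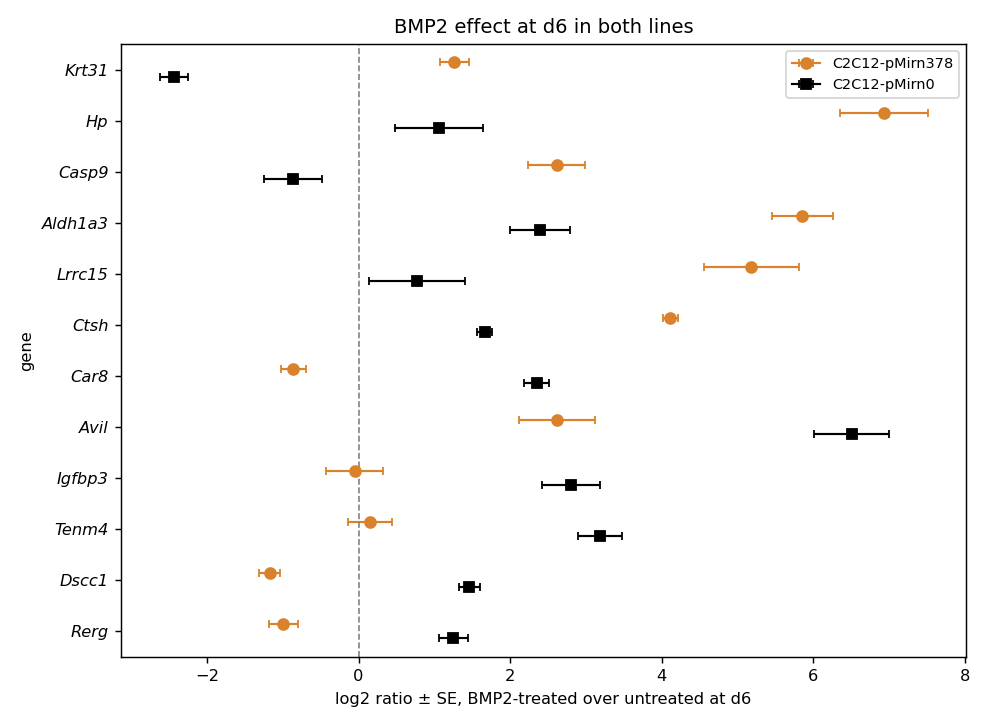
Log2 ratio of BMP2-treated over untreated cells at d6, with its SE, in C2C12-pMirn378 cells (orange, upper) and C2C12-pMirn0 cells (black, lower) for the 12 genes with the highest and lowest difference between the lines. The C2C12-pMirn378 value lies to the right for *Krt31*, *Hp*, *Casp9*, *Aldh1a3*, *Lrrc15* and *Ctsh* and to the left for *Car8*, *Avil*, *Igfbp3*, *Tenm4*, *Dscc1* and *Rerg*.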

How the data were processed

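RNA of C2C12 cells was hybridised to Affymetrix Mouse Genome 430 2.0 arrays after labelling of 200 ng with the GeneChip 3'IVT kit. The deposited values are RMA-normalised intensities on a linear scale, which the authors made in R 2.4.1, per the submitters' processing notes. Their log2 values were fitted with limma 3.58.1 in R 4.3.3, 30 arrays and 10 group means in 1 model, and p-values were adjusted by Benjamini-Hochberg over all 45101 probe sets. The fit was checked on simulated data first. The thresholds and the AEV follow the methods of the study. The number of arrays limits the precision.

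The platform annotation gave 1 symbol to 34958 probe sets, several to 932 and none to 9211. Symbols were checked by Entrez number for 34754 probe sets, and 0 changed. A gene was read on the probe set with the highest mean log2 value over the 30 arrays. Probe sets ending in _s_at or _x_at can take signal from related transcripts.

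The gene lists and the naming rule were chosen with earlier results of these data known. The rule covered genes given for the arrays in the study, the 12 largest rises and falls and the 6 largest differences each way after values under 50 were set to 50, all members of the lists of myogenic, BMP target and skeletal factors, and the strongest called members of the other lists. The paragraphs on the myogenic and skeletal lists nevertheless leave out some members that were not called. Other genes were named after their values were seen. Motifs were searched on both strands of RefSeq promoters.

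Alternatives were a replicate block, fewer arrays in the fit, array weights, eBayes with a trend and robust variances, 2 other normalizations, an offset of 16, the floor of 50, a filter on dim probe sets, leaving out each array, a looser threshold and, for lists, the mean of the probe sets of a gene.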

Additional observations from a re-analysis of the deposited data

Results flagged for a closer look

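Of the genes named above, 57 probe sets had a BMP2 effect in C2C12-pMirn0 cells at d6 that was called different from the effect at d3 by over 1 in log2 difference, and that kept the call without each single array. Values are the log2 ratio at d6 minus that at d3, read from the same limma fit, so that a negative value is a lower ratio at d6.

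Some muscle genes had a lower ratio at d6 than at d3, namely 12 of 44 sarcomere, 1 of 17 calcium, 2 of 12 synapse and 3 of 18 muscle energy genes, with 1 muscle energy gene higher. Of all 18194 genes 4.03% were lower and 1.82% higher in effect at d6, and the calcium count lay near the first share. *Chrng* had log2 differences of -1.45 and -2.06 on its 2 probe sets and *Chrna1* of -1.32. The value was -1.59 for *Mymx*, -1.31 for *Actc1*, -1.31 for *Tnnt1*, -1.20 for *Ttn* and -1.00 for *Lmod3*. *Synpo2*, *Tceal7* and *Hes6* had -1.12, -1.34 and -1.43. *Ncam1* went the other way, at 1.04.

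Mitotic genes were lower in effect at d6, *Cenpf* at -1.93, *Mki67* at -1.78, *Ccnb2* at -1.49, *Ccna2* at -1.35 and *Cdk1* at -1.36. The stress genes *Trib3* and *Sesn2* were higher in effect, at 1.51 and 1.54. Of 22 secreted immune genes 3 were higher and 2 lower in effect, *Ptx3* at 2.25, *Cxcl5* at 1.94 and *Cxcl1* at 1.40 being the higher ones. *Cyp51* of cholesterol synthesis had -1.40.

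Matrix and bone genes made up a further group. Lower in effect at d6 were *Postn* (-3.87), *Col8a1* (-3.73), *Thbs1* (-2.50), *Fmod* (-2.13), *Timp3* (-1.21), *Ccn2* (-1.10) and *Col1a1* (-1.02). A second probe set of *Fmod* and of *Col1a1* gave -0.54 and -0.66, and neither was called. The bone genes *Mgp*, *Omd* and *Ank* had -2.55, -1.34 and -1.16, and *Cilp* had -4.78. *Mmp13* and *Phex* were higher in effect, at 4.45 and 1.51, and *Phex* lay below the median of all values in both groups at d6.

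Of signalling genes, the BMP antagonists *Bmper* and *Fst* had -2.78 and -1.49, the activin subunit *Inhbb* -2.16, the Wnt inhibitors *Sfrp2* and *Dkk2* -1.99 and -2.17 and the receptors *Fzd1* and *Fgfrl1* -1.70 and -2.12. *Prrx2* had -1.21 and *Notch1* 1.30. Among the remaining genes *Gsta2* (3.38), *Diras2* (2.88), *Chchd10* (2.72), *Hoatz* (2.56), *Car6* (2.48) and *Cdsn* (1.78) were higher in effect at d6. *Ighm* (-6.26), *Tspan8* (-4.78), *Cd24a* (-4.20), *Krt14* (-3.14), *Krt31* (-2.19) and *Tubb3* (-1.57) were lower.

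By the same criteria, 30 probe sets differed at d6 between C2C12-pMirn378 and C2C12-pMirn0 cells, given as the log2 ratio in C2C12-pMirn378 minus that in C2C12-pMirn0. Muscle genes were mostly lower in effect in C2C12-pMirn378 cells, *Myh3* at -1.99, *Actc1* at -1.21, *Synpo2l* at -1.03 and *Rbm24* at -1.00, whereas *Chrna1* was higher at 1.14. Matrix genes were higher in effect, *Col8a1* at 1.72, *Postn* at 1.38, *Col1a1* at 1.24 and *Thbs1* at 1.06. Signalling genes gave 1.44 for *Fst*, 1.30 for *Inhbb*, 1.83 for *Lgr6*, 1.07 for *Fzd1* and -1.75 for *Grem1*. Further genes higher in effect were *Hp* (5.87), *Krt31* (3.70), *Casp9* (3.48), *Aldh1a3* (3.46), *Ctsh* (2.44), *Cd24a* (2.08), *Tubb3* (1.55) and *Edem1* (1.05). Further genes lower in effect were *Car8* (-3.21), *Tenm4* (-3.02), *Dscc1* (-2.63), *Rerg* (-2.24), *Gsta2* (-2.12), *Chchd10* (-1.81), *Cd36* (-1.72) and *Mcm3* (-1.01).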

How the results depend on the processing

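With only the arrays of a comparison in the fit, the BMP2 effect at d6 gave 2455 probe sets higher and 2380 lower, the d6 minus d3 difference 290 and 566, and the line difference 42 and 51, which is also the fit on the 12 d6 arrays. With the 15 C2C12-pMirn0 arrays, 380 probe sets were higher in effect at d6 than at d3. An adjusted p under 0.05 without a minimum ratio gave 8841 and 6635, 1979 and 2581, and 761 and 994. With values under 50 set to 50, 472 were higher in the line difference. Leaving out 1 array at a time gave 3948 to 4224 higher and 3419 to 3523 lower for the effect, 486 to 572 and 932 to 1057 for the day difference, and 199 to 270 and 233 to 302 for the line difference. All other counts of probe sets in these 3 comparisons stayed within 1.5 times those in the report. Scaling to the brighter probe sets gave 3786 higher and 4070 lower and quantile normalization 3927 and 3904, moving the median log2 ratio of all genes to 0.02 and 0.04, against 0.08.

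Replicates of the same number had weakly correlated deviations across groups, at 0.03, 0.09 and 0.06, although each array correlated best with its own number. With 3 arrays a group this cannot settle whether they were paired, and the labels do not say. The replicate block gave 4364 higher and 3723 lower, and changed no call of a gene named for the effect other than that of *Dkk2*, which was lost. Under it *Lrrc15* lost its call for the line difference.

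The mean of the probe sets of a gene, under which *Ncam1* lost its call, was counted for lists only. Of 243 named genes called for the effect, 227 were called in every other alternative. The exceptions were *Foxc1*, *Msx2*, *Zfp521*, *Wnt5a*, *Fgfr3*, *Cdk4* and *Dkk2*, and, with only the 6 arrays of the comparison, *Aldh1a3*, *Cd24a*, *Cnn1*, *Col2a1*, *E2f1*, *Fzd3*, *Matn2*, *Notum* and *Tubb3*. Of the named genes called for the day and line differences, 64 of 95 and 13 of 56 were called in every alternative other than that mean. The line difference of *Chrng* on its dimmer probe set was -0.66, and 0.25 (adjusted p = 0.16 by limma) with values under 50 set to 50, which acts on BMP2-treated values below 50. Counts over the gene lists moved more. With only the 6 arrays of the comparison, 8 cell cycle genes (16 in the report), 2 secreted immune genes (5) and 1 stress gene (2) were lower, and 3 hypoxia genes (5) and 0 smooth muscle genes (1) were higher. On the mean of the probe sets of each gene, 9 cell cycle genes (16) and 3 TGF-β and activin genes (5) were lower, and 5 cartilage (3), 2 cycle exit (5), 2 smooth muscle (1) and 3 Notch genes (6) were higher. At an adjusted p under 0.05 without a minimum ratio, 23 genes of oxidative phosphorylation (10), 8 matricellular (5), 6 Notch (3), 6 hypoxia (2), 5 stress (2) and 2 skeletal factor genes (1) were lower, and 9 cell cycle (3), 18 stress (9), 15 collagen (9), 11 growth factor (7), 8 TGF-β and activin (5), 8 hypoxia (5), 5 cartilage (3) and 3 smooth muscle genes (1) were higher. Under 1 or more alternatives 1 cartilage gene was lower, and the offset gave 3 cycle exit genes higher. Below the median of all values, where the replicate SD was 0.708 on the log2 scale, ratios are loose.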
